A study of Homo sapiens with 24 samples.

Results

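Maturing oligodendrocytes switch on a set of genes for making, folding and maintaining myelin, and 8 of these genes are described here: MBP, CNP, MYRF, BCAS1, SIRT2, MAL, UGT8 and TCF7L2. They were picked by name, as the 8 of 58676 gene rows of the deposited count table whose Ensembl identifier maps to these symbols. The rule used no measured value, though the 8 genes were chosen with earlier results of these data known. The RNA came from HSJD-DIPG-007, an established patient-derived line of diffuse midline glioma (DMG) that carries H3F3A K27M, ACVR1 R206H and a PIK3CA missense mutation (MIS in the labels). Every group shares these alleles, and the line is a single tumour model grown as spheroids in medium with the growth factors EGF, FGF and PDGF. Cells received LLY-283, an inhibitor that occupies the cofactor pocket of the arginine methyltransferase PRMT5, at the dose the labels call GI(40), or the DMSO vehicle, and medium and drug were renewed once after day 5. The 24 libraries split evenly between the arms. Days 0 and 5 had 3 per arm and day 7 had 2, whereas days 1, 2, 3 and 10 were covered by a single one per arm. The question asked of these genes was whether cells that resemble oligodendrocyte precursors moved towards the mature state under PRMT5 inhibition.

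Oligodendrocytes arise from dividing precursors that carry PDGFRA and CSPG4. On leaving the cell cycle they pass through a newly formed stage, marked by BCAS1, and then turn on MYRF, a membrane-bound transcription factor that is cut free of its membrane anchor and drives the myelin programme. The products of that programme include the structural myelin proteins MBP and CNP, the lipid-raft protein MAL and the enzyme UGT8, which makes the galactosylceramide of the myelin sheath. TCF7L2, the nuclear partner of beta-catenin, is transiently high as precursors begin to differentiate, and SIRT2 is a deacetylase that accumulates in myelin-forming cells. Gliomas of the midline keep much of the precursor state and seldom complete this sequence.

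Library totals lay between 13835205 and 23190369 estimated counts. Repeats within a group were technical by the study's own account, so each p-value and fold-change interval here measures only the spread between these libraries. Most precursor markers were plentiful, with 6 of 8 (PDGFRA, CSPG4, OLIG1, OLIG2, VCAN and PTPRZ1) at 10 counts or more in every library and a summed level of 4722 to 6541 counts scaled to a common library size (CPM). The remaining markers, SOX10 and PCDH15, were scarce, at 0 to 11 and 0 to 13 counts per library. PTPRZ1 alone had a median of 3043 CPM, where the sum had a median of 5169 CPM. Of 5 markers of myelinating oligodendrocytes (MOG, MAG, MOBP, CLDN11 and OPALIN), 0 reached 10 counts in every library. Summed microglial markers stayed at or below 1.86 CPM and summed T lymphocyte markers at or below 1.08 CPM. A caution applies to days 7 and 10. On an axis drawn from the genes called at day 5, with the vehicle mean at 0% and the LLY-283 mean at 100%, both second repeats of day 7 sat towards the opposite arm. The library labelled vehicle repeat 1 stood at -2.68% and the library labelled vehicle repeat 2 at 47.3%, against 73.0% and -7.81% for the libraries labelled LLY-283 repeats 1 and 2. Day 7 values are therefore given by label. The vehicle library of day 10 stood at 60.5% on this axis and the LLY-283 library at 96.2%, and the vehicle libraries of day 0 at 19.6% to 32.8%. The labels number the libraries of days 0 to 3 from 37 to 48 and those of days 5 to 10 from 1 to 12, and a change between day 0 and day 5 cannot be told apart from that difference in numbering.

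The 8 genes lie on separate chromosomes. On GRCh38 (GENCODE release 44), MBP spans 76978827 to 77133683 on the minus strand of chromosome 18, CNP 41966763 to 41977740 on the plus strand of chromosome 17, MYRF 61752636 to 61788518 on the plus strand of chromosome 11 and BCAS1 53936777 to 54070594 on the minus strand of chromosome 20. SIRT2 spans 38878555 to 38899862 on the minus strand of chromosome 19, MAL 95025677 to 95053992 on the plus strand of chromosome 2, UGT8 114598770 to 114678225 on the plus strand of chromosome 4 and TCF7L2 112950247 to 113167678 on the plus strand of chromosome 10. Counts are per gene and pool all transcripts, so the short MBP transcripts of myelin cannot be told apart from the longer ones of the same locus that other cell types also use. Exons of 6 of the genes overlap exons of another gene on the opposite strand (CNP with DNAJC7, MYRF with TMEM258, SIRT2 with NFKBIB over 40 bases, and MBP, BCAS1 and TCF7L2 with non-coding RNAs), and MBP also overlaps an unnamed transcript on its own strand over 359 bases. The library kit keeps strand, but whether the counting used it is not given in the sources used here, so these levels may hold reads of the partner gene.

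RefSeq (GRCh38.p14) lists promoter windows for 6 of the 8 genes, and not for MYRF and BCAS1 in the table used here. Windows of 3 genes are printed because they set a gene with no count in any library beside genes that were well expressed. Each runs from upstream up to the last base before the first annotated exon, 5′ to 3′ on the gene's strand, with every CpG dinucleotide in capitals. The windows are chr17:41966545-41966762 for CNP, chr4:114598557-114598769 for UGT8 and chr2:95025458-95025676 for MAL, all on the plus strand.
CNP: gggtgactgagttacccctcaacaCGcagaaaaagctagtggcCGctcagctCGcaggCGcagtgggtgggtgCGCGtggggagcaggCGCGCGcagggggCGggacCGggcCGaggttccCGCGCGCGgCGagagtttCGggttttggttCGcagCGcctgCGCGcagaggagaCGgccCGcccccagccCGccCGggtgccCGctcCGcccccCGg
UGT8: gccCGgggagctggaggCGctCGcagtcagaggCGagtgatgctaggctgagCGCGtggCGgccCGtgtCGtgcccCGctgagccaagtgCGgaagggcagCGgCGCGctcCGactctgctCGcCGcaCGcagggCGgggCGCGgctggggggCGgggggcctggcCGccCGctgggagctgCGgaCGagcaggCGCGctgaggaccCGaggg
MAL: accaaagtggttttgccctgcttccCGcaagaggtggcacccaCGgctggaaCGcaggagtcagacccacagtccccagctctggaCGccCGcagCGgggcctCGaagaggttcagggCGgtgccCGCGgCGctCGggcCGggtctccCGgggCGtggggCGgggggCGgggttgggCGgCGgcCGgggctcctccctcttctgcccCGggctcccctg
The window of MAL, whose counts were 0 throughout, was also rich in CpG. Over the full 250 bases upstream of the printed starts, MAL had 75.2% GC and 26 CpG, CNP 73.6% and 33, and UGT8 73.2% and 30, where the median over 35116 RefSeq windows was 58.0% and 11. Other listed starts of UGT8 and CNP were nearer to that median, at 54.8% and 13 and at 59.2% and 12 for UGT8 and at 59.6% and 5 for CNP. Motifs were searched on both strands of the full windows. The SOX motif ACAAAG, held by 13.7% of all windows, was found at one start of TCF7L2. The TCF and LEF motif CTTTGA, held by 11.2%, was found at one start of MBP. The E-box CAGCTG, held by 14%, was found at that start of MBP and at the inner start of CNP. The MYRF motif was searched as CTGGCAC or, in its other form, as CTGGTAC, held together by 5.83% of all windows, and it was found at no listed start of these genes. The 3 printed windows held no match to any of these.

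Per kilobase of canonical transcript, the genes fell into an expressed group of 5 and a scarce group of 3. SIRT2 was the highest, with a median over the 24 libraries of 17.8 CPM per kb and a range of 14.3 to 21.9. CNP followed at a median of 12.7 CPM per kb (10.3 to 14.3), and was below SIRT2 in 24 of 24 libraries. This order rests on the transcript lengths used, 5172 bases for CNP and 1862 for SIRT2, applied alike in every library. Before division by length CNP was the higher, at a median of 65.6 CPM against 33.2 CPM for SIRT2. TCF7L2 and UGT8 stood next at medians of 10.0 and 9.95 CPM per kb and could not be ordered, TCF7L2 being the higher in 11 of 24 libraries. MYRF had a median of 5.01 CPM per kb (4.05 to 6.65) and was below UGT8 in every library. The remaining genes were far lower, with a median of 0.105 CPM per kb for MBP, 0.064 for BCAS1 and 0 for MAL. The cells thus held RNA of the myelin transcription factor MYRF, of the enzymes CNP, SIRT2 and UGT8 and of TCF7L2, but close to none of the major myelin basic protein.

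MBP, which compacts the layers of the sheath, had between 2 and 9 estimated counts in each of the 24 libraries, with a median of 5.5. Summed over an arm it had 61 counts in 12 vehicle libraries, or 0.279 CPM of the summed library totals (95% exact Poisson interval 0.214 to 0.359), and 65 in 12 LLY-283 libraries, or 0.289 CPM (0.223 to 0.368). The arms overlapped throughout, and these intervals cover counting error only. At day 5 the 3 vehicle libraries held 4, 6 and 2 MBP counts and the 3 LLY-283 libraries 6, 4 and 8. MBP was too scarce to pass the filter on low counts in any comparison.

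BCAS1, the marker of newly formed oligodendrocytes, had 0 to 12 counts per library with a median of 4. The summed counts were 38 for vehicle, or 0.174 CPM (0.123 to 0.239), and 60 for LLY-283, or 0.267 CPM (0.204 to 0.343), and the intervals of the arms overlapped. That overlap is not a test of the arms, and the intervals cover counting error only. As for MBP, the sums include the day 0 libraries and those labelled day 7 repeat 2. The highest library was LLY-283 at day 3 with 12 counts, where the vehicle library of that day had 1, but that day has 1 library per arm. At day 5 the counts were 5, 2 and 4 for vehicle and 4, 6 and 5 for LLY-283, so the arms overlapped there too. MAL, a proteolipid of membrane rafts in compact myelin, had 0 counts in all 24 libraries. A count of 0 allows up to 3 counts, between 0.129 and 0.217 CPM according to the library.

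The same scarcity held for 5 other myelin genes. MAG and OPALIN had 1 and 2 counts in all libraries together. CLDN11, the claudin of the myelin sheath, had 2 to 13 counts per library and MOBP 2 to 19. MOG, a surface protein of the outermost myelin layer, had 4 to 29 counts. Its counts at day 0 were 11, 4 and 7 for vehicle and 8, 5 and 6 for LLY-283, and at day 5 they were 19, 8 and 10 for vehicle and 26, 9 and 26 for LLY-283.

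**Figure D1:**
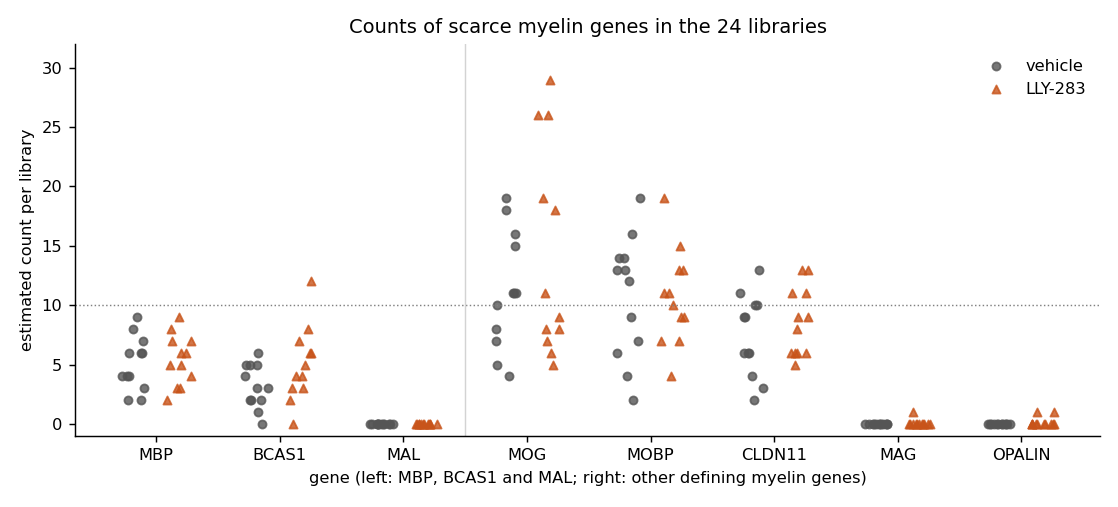
Estimated counts per library (vertical axis, linear) of MBP, BCAS1 and MAL and of 5 other defining myelin genes, with 12 vehicle libraries as circles and 12 LLY-283 libraries as triangles, spread sideways for legibility; the dotted line marks 10 counts. MBP does not exceed 9 counts, MAL is at 0 in all 24 libraries, and the highest MOG count is 29.

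At day 5 the expressed genes differed little between the arms. SIRT2 was higher in LLY-283, MYRF and CNP lay apart between the arms without passing the threshold, and UGT8 and TCF7L2 overlapped. Calls required an adjusted p under 0.01 in edgeR's quasi-likelihood test over 16491 genes. Of 5 genes tested, 1 was called, and 26.1% of all genes tested were called in this comparison (12% higher and 14.1% lower). The median log2 fold change of the 5 was 0.12, beside 0.02 for all genes tested.

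SIRT2, a NAD-dependent deacetylase of tubulin and other cytoplasmic proteins, had 32.2, 33.8 and 34.7 CPM in the vehicle libraries of day 5 and 36.9, 38.4 and 37.5 CPM in the LLY-283 libraries. Every LLY-283 library was above every vehicle library. The means were 33.6 ± 1.26 and 37.6 ± 0.744 CPM (SD, n = 3 each), a 1.14-fold difference with a log2 fold change of 0.19 (SE 0.0571, 95% interval 0.07 to 0.31, adjusted p = 0.0094). This call sat at the threshold. It was lost with DESeq2 (adjusted p = 0.071), with its size factors in edgeR (0.012), without the filter (0.014), in a fit shared by 22 libraries (0.15) and on leaving out any one of the 6 libraries (0.012 to 0.097, the largest without vehicle repeat 1), while the log2 fold change stayed between 0.15 and 0.22 over all alternatives.

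MYRF had 36.8, 35.7 and 32.6 CPM in vehicle and 37.3, 38 and 39.5 CPM in LLY-283 at day 5. The arms did not overlap, but the nearest libraries of the arms, at 36.8 and 37.3 CPM, were closer to each other than the vehicle libraries were among themselves. The log2 fold change was 0.15 (SE 0.0591, 95% interval 0.03 to 0.27, adjusted p = 0.045), which did not pass. CNP, the phosphodiesterase that keeps cytoplasmic channels of myelin open, pointed the other way. It had 74.0, 72.3 and 69.9 CPM in vehicle and 66.5, 66.0 and 64.4 CPM in LLY-283, again with no overlap, and a log2 fold change of -0.11 (SE 0.0443, 95% interval -0.2 to -0.02, adjusted p = 0.05) that did not pass either. Arms without overlap, as for SIRT2, MYRF and CNP, were found for 46.3% of all genes tested at day 5.

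UGT8 had 33.8, 35.0 and 34.3 CPM in vehicle and 40.1, 34.6 and 35.4 CPM in LLY-283. One LLY-283 library was high and the others fell among or next to the vehicle libraries. Its log2 fold change was 0.12 (95% interval -0.01 to 0.24, adjusted p = 0.13). TCF7L2 had 41.9, 43.3 and 37 CPM in vehicle and 43.6, 41.5 and 38.4 CPM in LLY-283, fully interleaved, with a log2 fold change of 0.04 (95% interval -0.09 to 0.16, adjusted p = 0.68). For these 2 genes the intervals leave out changes beyond 0.24 and 0.16 on the log2 scale in either direction. They measure only the spread between technical repeats and so do not bound the effect in other cultures.

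**Figure D2:**
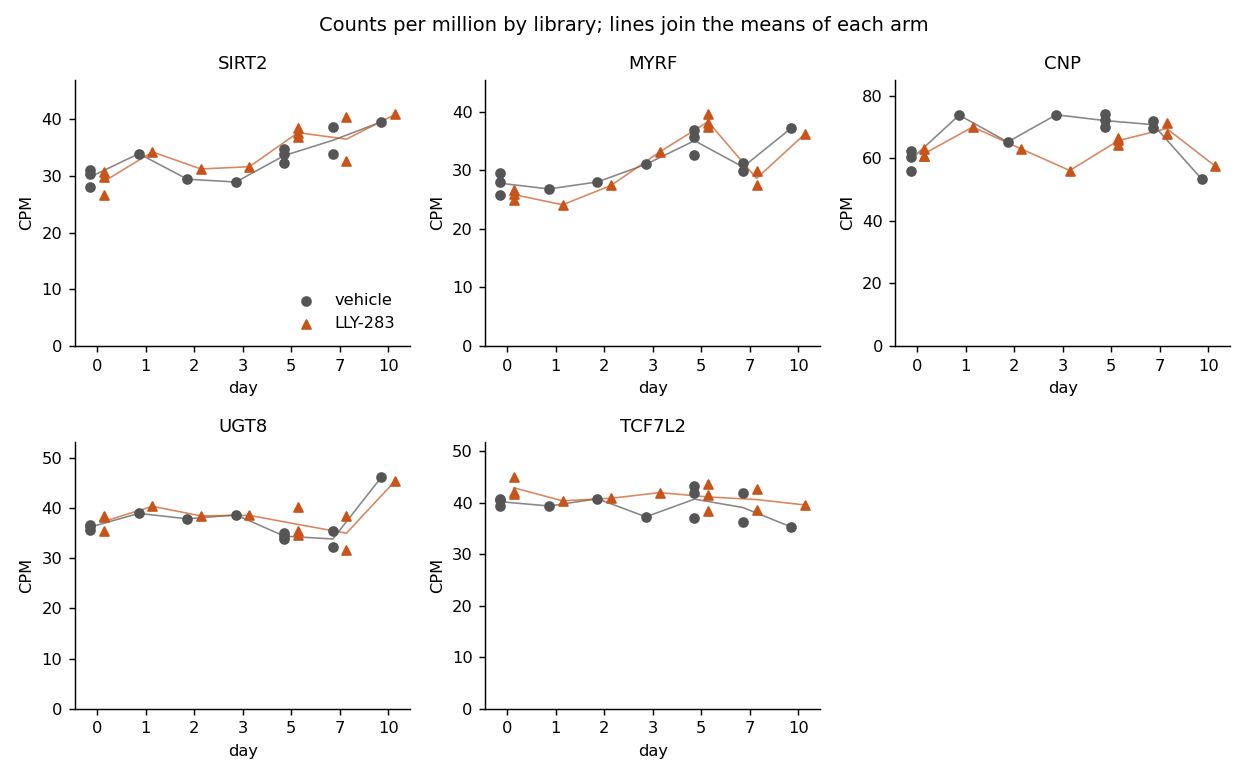
CPM (vertical axis, linear, from 0) of the 5 expressed genes in each library by day of treatment (horizontal axis, days not to scale), with vehicle as circles and LLY-283 as triangles and lines through the arm means. At day 5 the arms of SIRT2, MYRF and CNP lie close together without overlap and those of UGT8 and TCF7L2 overlap.

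Between day 0 and day 5, MYRF was called higher in both arms, CNP in vehicle and SIRT2 in LLY-283, while UGT8 and TCF7L2 did not pass in either. A call in a single arm is not a difference between the arms, which is tested directly below. The tests used 12 libraries in a fit of 4 groups. In vehicle, 2 of 5 genes were called, both higher, where 37.6% of 18369 genes tested were called and 22.1% were higher. In LLY-283, 2 of 5 were called, again both higher, where 39.5% of all genes were called and 22.6% were higher. Both tests share one estimate of the spread, and their day 5 libraries are also those of the day 5 comparison of the arms.

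MYRF had 29.5, 25.8 and 28.0 CPM in vehicle at day 0 and rose 1.26-fold to the day 5 levels given above (log2 fold change 0.34, SE 0.0614, adjusted p = 4.3e-05). In LLY-283 it had 24.9, 25.9 and 26.7 CPM at day 0 and rose 1.52-fold (log2 fold change 0.61, SE 0.0596, adjusted p = 8.8e-10). In each arm all day 5 libraries of MYRF were above all its day 0 libraries, and the same held in both arms for CNP and SIRT2. UGT8 was lower in every vehicle library of day 5 than in any of day 0. Such a separation was found for 54.9% of genes tested in vehicle and 55.5% in LLY-283, either direction counted. Among the 5 tested genes, MYRF under LLY-283 had the largest change over these days.

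CNP had 56.0, 62.3 and 60.3 CPM in vehicle at day 0 and rose 1.21-fold by day 5 (log2 fold change 0.27, SE 0.0435, adjusted p = 5.7e-06). In LLY-283 it had 60.8, 63.0 and 60.6 CPM at day 0, and its change did not pass (log2 fold change 0.13, SE 0.0428, adjusted p = 0.011). SIRT2 showed the reverse order of the arms. It had 28.0, 30.3 and 31.1 CPM in vehicle at day 0, with a change of 0.17 that did not pass (SE 0.0599, adjusted p = 0.022), and 26.6, 29.8 and 30.6 CPM in LLY-283 at day 0, from which it rose 1.33-fold (log2 fold change 0.42, SE 0.0575, adjusted p = 5.1e-07). UGT8 changed by -0.08 and 0.01 and TCF7L2 by 0.02 and -0.02 on the log2 scale in vehicle and LLY-283.

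Whether the change with time differed between the arms was tested directly, as the LLY-283 change minus the vehicle change. None of the 5 genes passed at an adjusted p under 0.01 in edgeR, where 14.9% of all genes did (6.78% with the larger change in LLY-283 and 8.15% with the smaller). An unadjusted p under 0.05 was reached by 3 of the 5, and by 6390 of all 18369 genes tested. The difference was 0.27 for MYRF (95% interval 0.10 to 0.45, adjusted p = 0.020), 0.25 for SIRT2 (0.08 to 0.42, adjusted p = 0.028) and -0.14 for CNP (-0.27 to -0.02, adjusted p = 0.095). DESeq2 called 0 of the 5 as well.

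**Figure D3:**
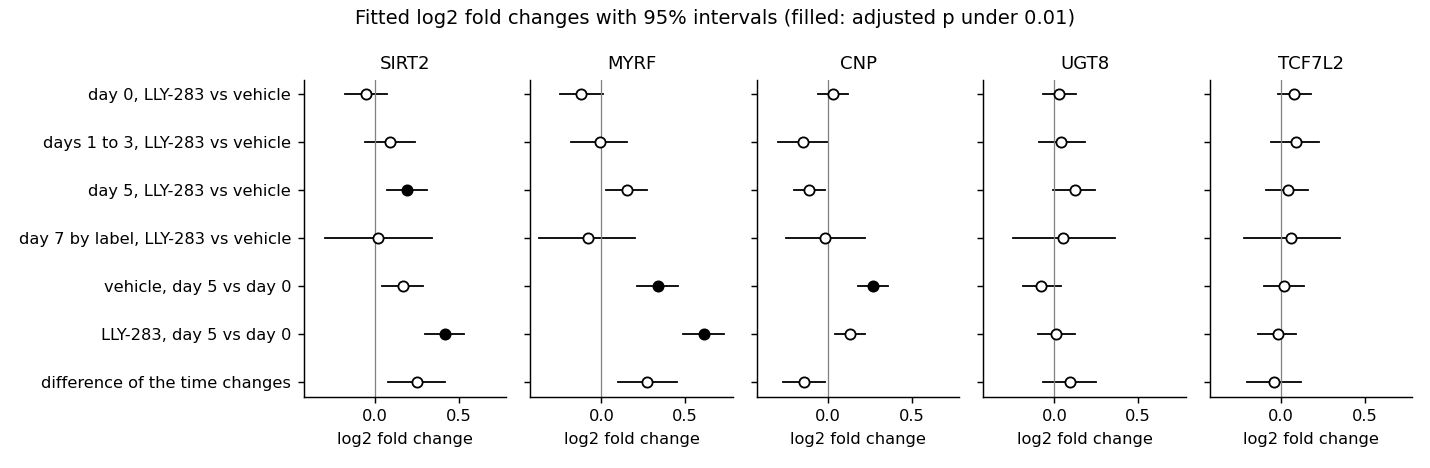
Fitted log2 fold changes (horizontal axis, log2 scale) with 95% intervals of the 5 expressed genes in 7 comparisons, where filled points have an adjusted p under 0.01 and open points do not. MYRF is filled in both time comparisons, CNP in vehicle alone and SIRT2 in LLY-283 and in the day 5 comparison of the arms.

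None of the 5 genes was called at day 0, over days 1 to 3 together or at day 7, and day 10 was not tested. At day 0, 0 of 5 genes were called, with 0.0169% of genes tested called, and the log2 fold changes lay between -0.12 for MYRF and 0.08 for TCF7L2. TCF7L2 was the single gene of the 5 whose arms did not overlap at day 0, with 40.8, 40.5 and 39.4 CPM in vehicle and 42.1, 45 and 41.7 CPM in LLY-283, a separation shown by 11.9% of genes tested.

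Days 1, 2 and 3 have 1 library per arm, and only the mean arm difference over the 3 days could be tested, with day as a block. No gene was called there by edgeR among 17240 tested (0%), while 2879 reached 0.05 before adjustment and DESeq2 called 3. CNP came nearest among the 5 genes (log2 fold change -0.15, SE 0.0687, adjusted p = 0.30). Its levels were 73.8 and 70.0 CPM in vehicle and LLY-283 at day 1, 65.2 and 63.0 CPM at day 2 and 73.9 and 56.1 CPM at day 3, so most of that difference came from day 3. MYRF had 26.8 and 24.1 CPM at day 1 and 31.0 and 33.1 CPM at day 3.

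At day 7 by label, edgeR called 0% of 16826 genes, though 236 reached 0.05 before adjustment, while DESeq2 called 3. SIRT2 had 33.9 and 38.6 CPM in the libraries labelled vehicle repeats 1 and 2 and 40.3 and 32.6 CPM in those labelled LLY-283. For SIRT2, the libraries labelled repeat 2 thus stood in the opposite order to those labelled repeat 1, as they did on the treatment axis. UGT8 had the reverse orders, with 35.4 and 32.2 CPM in vehicle repeats 1 and 2 and 31.6 and 38.3 CPM in LLY-283. CNP had 69.7 and 71.8 CPM in vehicle and 71.2 and 67.8 CPM in LLY-283, so repeat 2 had its day 5 direction. TCF7L2 was higher under the LLY-283 label in both repeats. The cause of these orders was not tested. MYRF had fallen back to between 27.4 and 31.3 CPM in all 4 libraries of day 7, near its day 0 levels. At day 10 it had 37.2 CPM in vehicle and 36.2 CPM in LLY-283.

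The day 10 libraries, 1 per arm and not tested, gave the extremes of several genes. UGT8 had 46.1 CPM in vehicle and 45.3 CPM in LLY-283, above each of the other 22 libraries. CNP had 53.4 and 57.5 CPM, its vehicle value being the lowest of all 24 libraries. In none of the 5 expressed genes did the LLY-283 library of day 10 exceed the vehicle library beyond their counting intervals, and the share of all genes that did was not computed. Over days 0 to 7 together, the treatment-by-day test called 0 of 6 genes of the 8, where 0.0289% of 20756 genes were called. CNP was lowest at an adjusted p of 0.18. BCAS1 was among the 6 only through the LLY-283 library of day 3, the 1 library where it reached 10 counts. Nothing is therefore read from its test. Leaving out both libraries labelled day 7 repeat 2, a check added after the values were seen, raised the calls over all genes from 6 to 2002 and left the count for these genes at 0.

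Other genes of the lineage are given from 6 lists written from general knowledge, but with earlier results of these data known. Their counts beside the shares of all genes are therefore descriptions. The first holds 24 further myelin genes, of which 15 were tested at day 5. In LLY-283, 4 of them were higher (ENPP2, GSN, CD9 and EVI2A), 1 was lower (CA2) and 10 did not pass, with a median log2 fold change of 0.34 beside 0.02 for all genes tested. Of all genes tested at day 5, 12% were higher and 14.1% lower. ENPP2, the secreted enzyme autotaxin, was higher by 0.83 (adjusted p = 2.4e-09), at 14.7 ± 1.03 CPM in vehicle and 25.8 ± 1.52 CPM in LLY-283 (SD, n = 3 each). It also rose with time in both arms, by 1.07 in vehicle and 1.80 in LLY-283.

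GSN, the actin-severing protein gelsolin, was higher by 0.78 in LLY-283 at day 5 (adjusted p = 1.5e-06), yet it fell with time in both arms. Its mean went from 20.3 to 7.27 CPM in vehicle and from 21.0 to 12.3 CPM in LLY-283 between days 0 and 5. The day 5 difference was thus a smaller fall. CD9, a tetraspanin, was higher by 0.27 at day 5 (adjusted p = 2.3e-06) and rose with time in both arms. EVI2A was higher by 0.98 at day 5 (adjusted p = 0.0068) after falling with time in both arms, and CA2, a carbonic anhydrase, was lower by 0.30 (adjusted p = 8.7e-05) after rising in both. The tests of MOG (0.43), MOBP (0.29) and CLDN11 (0.20) did not pass, with standard errors of 0.402, 0.45 and 0.452. From day 0 to day 5 MOG rose in LLY-283 (log2 fold change 1.76, adjusted p = 0.002), a call lost on leaving out either of day 0 repeats 2 and 3 or of day 5 repeats 1 and 3 (adjusted p 0.012 to 0.02), and its change in vehicle was 1.14 (adjusted p = 0.049). MOG was too scarce to be tested between the arms at day 0 and entered this fit through day 5, where its counts were higher. Nothing is therefore read from the direction of this call.

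The galactolipid pathway around UGT8 did not separate between the arms. Of 11 listed genes 8 were tested and none was called at day 5 in edgeR, where 26.1% of all genes tested were, at a median of 0.08. CERS4, a ceramide synthase, came closest with 0.81 (SE 0.25, adjusted p = 0.012) and was called with a filter of at least 10 counts in every library (adjusted p = 0.0053), followed by CERS2, which makes the very long ceramides of myelin, with -0.10 (adjusted p = 0.022). DEGS1, which desaturates dihydroceramide, had -0.09 and SPTLC1, a subunit of the enzyme of the first step, 0.09. The untested genes were scarce, FA2H with 2 counts, GAL3ST1 with 28 and DEGS2 with 153 over all 24 libraries. The 8 tested genes were not, with 106627 counts for CERS2 and 5117 for GALC among them.

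Among 10 genes of newly formed oligodendrocytes, 6 were tested and ITPR2, an intracellular calcium channel, was called, higher by 0.21 in LLY-283 (adjusted p = 0.00014). Over all genes tested, 12% were higher in LLY-283 at day 5. FYN, a kinase of early myelination, had 0.09 (adjusted p = 0.042), NFASC -0.26 and NEU4 -0.16. GPR17 and ENPP6, markers of the same stage as BCAS1, stayed at 0 to 7 and 4 to 16 counts per library. With time in culture NEU4, ITPR2 and FYN rose in both arms, NEU4 by 2.11 in vehicle and 1.35 in LLY-283 on the log2 scale, while TNS3 fell in both arms (-0.25 and -0.42) and SEMA5A fell in vehicle (-1.83). SEMA5A was too scarce to be tested between the arms at day 5 and entered this fit through day 0, so nothing is read from its direction.

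Of 17 lineage transcription factors 10 were tested, and at day 5 2 were higher in LLY-283 (SOX9 and OLIG1) and 3 lower (OLIG2, SOX8 and YY1), with a median of -0.05. The shares over all genes tested were 12% higher and 14.1% lower. SOX9, a factor of glial progenitors and astrocytes, had 258.5 ± 7.79 CPM in vehicle and 343.0 ± 3.45 CPM in LLY-283 (SD, n = 3 each), higher by 0.43 (adjusted p = 1.4e-10). YY1 was lower by 0.14, OLIG2 lower by 0.13 and OLIG1 higher by 0.15. The count of lower factors went from 3 to 0 on leaving out vehicle repeat 3 or LLY-283 repeat 2 or 3 of day 5, and to 1 with scaling by library size alone, and the OLIG1 call was lost without vehicle repeat 1 or 2 or LLY-283 repeat 2 or 3 (adjusted p 0.011 to 0.081). From day 0 to day 5, 9 of the 10 rose in vehicle and 8 rose and 1 fell in LLY-283, where 22.1% and 22.6% of all genes rose. SOX10, which in normal oligodendrocytes acts upstream of MYRF and is singled out here after its values were seen, had 0 to 11 counts per library and was not tested.

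None of the 12 tested genes among 15 partners and targets of TCF7L2 in the Wnt pathway was called at day 5 by edgeR, at a median of 0.10. Over all genes tested, 26.1% were called. Leaving out LLY-283 repeat 1 gave 1 lower call in this list and 1, CERS2, in the galactolipid list. The closest were DKK3 (0.29, adjusted p = 0.037), LEF1 (0.11, adjusted p = 0.046), the feedback inhibitor AXIN2 (0.32, adjusted p = 0.047) and LGR5 (0.08, adjusted p = 0.12). LEF1 fell with time in both arms and AXIN2 rose in both, while TCF7L2 itself had values near 0 in both.

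Of 18 genes listed as holding back maturation 16 were tested, and at day 5 9 were higher in LLY-283, 3 were lower and 4 were not called, at a median of 0.17, where 12% of all genes were higher and 14.1% lower. The count of higher genes was 4 in the fit shared by 22 libraries and 6 to 8 on leaving out a library. HEY1, a Notch target, was higher by 0.54 (adjusted p = 2.7e-07) after falling with time in both arms. MYC was lower by 0.33 (adjusted p = 1.4e-08) and ID3, a BMP target that blocks basic helix-loop-helix factors, by 0.65 (adjusted p = 2.0e-06). LGALS3 was higher by 0.34 (adjusted p = 1.6e-08); it encodes galectin-3, a sugar-binding protein that has been described as favouring oligodendrocyte differentiation, so it does not do what the list's name says. The other higher genes were GPR37 (0.99), TNFRSF21 (0.39), LINGO1 (0.38), SOX6 (0.25), EGR1 (0.24), NOTCH1 (0.16) and JAG1 (0.14). The other lower gene was ID1 (-1.61), which was scarce, at 2 to 38 counts per library and 10 or more in 17 of 24 libraries. The list thus held more higher than lower genes, but no single direction.

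**Figure D4:**
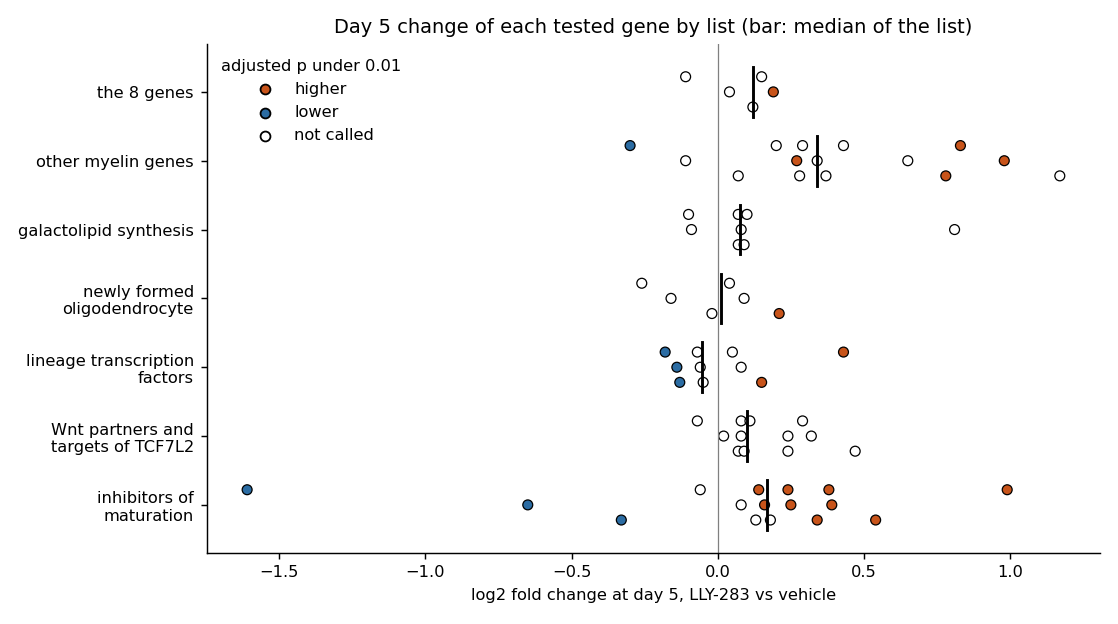
Day 5 log2 fold change, LLY-283 against vehicle (horizontal axis, log2 scale), of each tested gene among the 8 genes (5 tested) and in 6 further lists, one point per gene, coloured where the adjusted p was under 0.01, with a bar at each list's median. The 5 tested of the 8 genes lie between -0.11 and 0.19, while the other myelin genes reach 0.98 among those called and the inhibitors of maturation span -1.61 to 0.99.

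The summed precursor markers were also higher in LLY-283 at day 5, at 6278 to 6541 CPM against 5542 to 5777 CPM in vehicle. Of 6 tested precursor markers 4 were higher and OLIG2 was lower, where 12% of all genes were higher and 14.1% lower. Summed neuronal markers were at 157.1 to 167.6 CPM in LLY-283 against 110.0 to 114.1 CPM in vehicle (GAD1 and SYT1 called higher), astrocyte markers at 344.9 to 385.0 against 410.1 to 431.2 CPM (GFAP higher, GJA1 and SLC1A3 lower, AQP4 at 0 in all libraries) and Schwann cell markers at 32.6 to 36.3 against 27.0 to 30.9 CPM (CDH19 higher). Summed fibroblast markers ranged from 54.1 to 217.9 CPM in the vehicle libraries of day 5, the highest in vehicle repeat 3. In LLY-283 they were at 112.1 to 121.3 CPM (LUM and POSTN called higher, 4 of the 6 tested not called). Their part in the levels of the myelin genes was not tested. In bulk RNA, more cells of a type and more RNA per cell cannot be told apart.

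Over the 24 libraries the 5 expressed genes did not move as a block. The largest correlation between log2 CPM values was that of MYRF and SIRT2 (Pearson r = 0.62, and 0.70 without day 7), and CNP and UGT8 were inversely related (r = -0.51). The other 8 pairs lay between -0.29 and 0.12. All points share a cell line, a culture series and the day structure of the experiment, so these values are descriptions.

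By the same measure, MYRF was most like ADGRL1, an adhesion receptor (r = 0.94), SIRT2 like LUM, the matrix proteoglycan lumican (r = 0.93), and CNP like PSMD2, a proteasome subunit (r = 0.90). UGT8 was most like HINT3 (r = 0.79) and TCF7L2 like AP2B1, an adaptor of clathrin coats (r = 0.78). For BCAS1 the closest was ENSG00000259940 (r = 0.77), which had 2 to 26 counts per library. Both were highest in the LLY-283 library of day 3. ENSG00000259940 was lowest in the LLY-283 library of day 1. BCAS1 had 0 counts there and also in the library labelled vehicle repeat 2 of day 7. The match of these 2 genes rests on scarce counts. LUM is also one of the 7 fibroblast markers and was itself higher in LLY-283 at day 5 (log2 fold change 0.44, adjusted p = 7.2e-06). Without the day 7 libraries the choices for MYRF, SIRT2 and BCAS1 stayed and those for CNP, UGT8 and TCF7L2 changed. By Spearman rank correlation those for MYRF, SIRT2 and TCF7L2 stayed, while those for CNP, UGT8 and BCAS1 changed, that of BCAS1 to KANK3 (rho = 0.71).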

How the data were processed

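Poly(A) RNA of 24 libraries, 12 per arm, was sequenced by the authors, who assigned trimmed read pairs to human transcripts of hg38 with kallisto, whose version is not given in the sources used here. The deposited table holds estimated counts per gene as whole numbers, without normalization, at 13835205 to 23190369 per library. Ensembl identifiers were matched to symbols with GENCODE release 44 (58207 of 58676 rows). The fits used edgeR 4.0.16 in R 4.3.3 (TMM scaling, its default filter on low counts, robust quasi-likelihood F tests), and a call required a Benjamini-Hochberg adjusted p under 0.01 over all genes tested. CPM were scaled by TMM over 24 libraries and, between genes, divided by the length of the canonical transcript. Intervals on summed counts are exact Poisson intervals at 95%. The scripts were tested on simulated data.

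Groups came from the sample titles. Within days 0 and 5, repeats differed by more than sampling noise (chi-square per degree of freedom 1.65 to 3.79), so none were merged. Alternatives were DESeq2 1.42.0, its size factors, library size alone, other filters, a threshold of 0.05, a replicate block, a fit shared by 22 libraries and leaving out each library. The members and lists were chosen with earlier results of these data known. The rule named all 8 genes, the 4 tested genes of smallest day 5 p in each list, 5 defining myelin genes and the gene of most similar pattern to each member. Any other gene with a value was chosen after its values were seen. Another 2 listed genes are not reported here and were left out of the lists and their counts.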

Additional observations from a re-analysis of the deposited data

Results flagged for a closer look

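The change from day 0 to day 5 differed between the arms (LLY-283 change minus vehicle change, log2 scale, edgeR, adjusted p under 0.01) for 12 of the other genes picked by the naming rule, where 14.9% of all genes passed. Most of these 12 genes were named for a small day 5 p in the same libraries, so nothing is read from their number or from the absence of the 8 genes. Outside that rule, ID1, scarce at 2 to 38 counts per library, passed as lower and SOX6 and TNFRSF21 as higher among the inhibitors. The markers PDGFRA, PTPRZ1, GAD1, SYT1 and POSTN also passed as higher. Among myelin genes the difference was 0.27 for CD9, 0.74 for ENPP2, 0.75 for GSN and -0.32 for CA2. Among lineage factors it was 0.44 for SOX9, -0.22 for YY1 and -0.18 for OLIG2. Among inhibitors of maturation it was 0.53 for HEY1, 0.28 for LGALS3 and -0.2 for MYC. ADGRL1, whose pattern was most like that of MYRF, had 0.22, and PSMD2, most like CNP, had -0.22. All 12 missed the threshold in the fit shared by 22 libraries (adjusted p 0.025 to 0.21). Those of CD9, CA2, OLIG2, MYC, ADGRL1 and PSMD2 also missed it on leaving out some single libraries, and that of CA2 with DESeq2 (adjusted p = 0.012).

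The day 10 libraries entered no test. In 8 of the named genes the LLY-283 library lay above the vehicle library beyond both 95% counting intervals, and none of the 8 genes was among them. The share over all genes was not computed, and many named genes were picked for a small day 5 p. Nothing is therefore read from this number or from the absence of the 8 genes. GSN had 15.4 CPM against 9.96 in vehicle, SOX9 258.9 against 178.9 and OLIG1 142.0 against 123.8. HEY1 had 56.6 CPM against 35.5, LEF1 84.7 against 58.1 and DKK3 16.4 against 10.0. AP2B1 had 197.4 CPM against 170.0 and DEGS1 128.2 against 115.3. In the opposite direction, the vehicle library was the higher one beyond both intervals for ENPP2 (50.9 CPM against 37.2 in LLY-283), CD9 (175.1 against 162.0) and MYC (470.1 against 384.9). The same held for CA2 (52.3 against 44.8), CERS2 (251.3 against 235.4) and LGR5 (105.4 against 90.0). For ENPP2 and CD9, both called at day 5, this order is the reverse of their day 5 direction. LGR5 (log2 fold change 0.08 at day 5) and DEGS1 (-0.09) also differed in direction between the days, but neither was called at day 5. The vehicle library of day 10 stood at 60.5% of the day 5 treatment axis. With 1 library per arm these differences have no replicate check. No group holds 4 libraries, so no library was tested for lying far from its group.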

How the results depend on the processing

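The time-related calls of CNP and MYRF in vehicle and of MYRF and SIRT2 in LLY-283 held under every alternative run, while the single day 5 call, SIRT2, did not. At day 5, 3 of the 5 genes tested among the 8 were called at an adjusted p under 0.05, where 6060 of 16491 genes passed. Among the 8, 0 were called with DESeq2, DESeq2 size factors, no filter and the replicate block. The same held in the fit shared by 22 libraries and on leaving out any library (0 to 0). The difference of the time changes gave 2 of these genes at 0.05, where 4452 of 18369 genes passed. Over all genes, the shared fit called 2042 of 20756 at day 5 and 51 for the difference of the time changes. DESeq2 called 3250 of 16491 at day 5. At day 0, where 3 genes were called, there were 8 at 0.05, 56 without the filter, 6 with the replicate block, 0 in the shared fit and 0 to 17 on leaving out a library. Over days 1 to 3, where 0 were called, there were 3 at 0.05, 3 with DESeq2, 1 with its size factors, 517 without the filter and 0 to 256 on leaving out a day. At day 7 there were 3 with DESeq2, 27 without the filter and 7 to 32 on leaving out a library. The time course, with 6 calls, had 30 at 0.05, 221 with DESeq2, 10 with its size factors, 11 with library size alone, 1217 without the filter, 10 with at least 10 counts in every library, 1 with the replicate block, 0 to 894 on leaving out a library and 2002 without both day 7 repeat 2 libraries. The cause was not tested.

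Some values near 0 changed sign. MYRF over days 1 to 3 was 0.01 with library size alone, 0.00 without the day block and -0.08 to 0.05 on leaving out a day. CNP at day 7 was 0.01 with library size alone and -0.06 to 0.02 on leaving out a library, where SIRT2 was -0.15 to 0.16, UGT8 -0.09 to 0.18 and TCF7L2 -0.03 to 0.17. In vehicle from day 0 to day 5, TCF7L2 was -0.05 with library size alone, 0.00 without the filter, -0.02 with at least 10 counts and -0.02 to 0.08 on leaving out a library. In LLY-283, UGT8 was -0.02 with DESeq2, its size factors, library size alone and the shared fit, -0.01 without the filter, -0.03 with at least 10 counts and -0.05 to 0.05 on leaving out a library, and TCF7L2 was -0.06 to 0.03. Leaving out a library gave -0.03 to 0.08 for TCF7L2, -0.05 to 0.14 for HINT3, -0.07 to 0.73 for MOBP and -0.47 to 0.04 for NFASC at day 5, 0.00 to 0.07 for CNP and -0.10 to 0.01 for SIRT2 at day 0, and -0.10 to 0.00 for TCF7L2 in the difference of the time changes.

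Same-numbered libraries did not deviate together (correlations of -0.0764 to 0.00592 between arms, -0.0387 to 0.0118 in vehicle and -0.00795 to 0.0531 in LLY-283 between days 0 and 5), so the replicate block shares only a number. It left 0 of the 5 tested genes called at day 5, 2 in each time comparison and 0 for the difference. Over all genes it called 4401 of 16491 at day 5. Of 18369 genes it called 6585 with time in vehicle, 7025 in LLY-283 and 2435 for the difference. In the shared fit, SOX9, LGALS3, OLIG1, OLIG2, YY1, CA2 and ITPR2 lost their day 5 calls (adjusted p 0.014 to 0.23). Depth limits MBP, BCAS1 and MAL. Without the filter 7 of the 8 genes could be tested, all but MAL, and in the shared fit 6, where BCAS1 passed through 1 library. In both settings 0 were called between the arms at any day tested.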
